A study of Mus musculus with 32 samples.

Results

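The vascular endothelial growth factor (VEGF) system was described through 10 of the 22850 genes of the table: 5 ligands (*Vegfa*, *Vegfb*, *Vegfc*, *Figf*, and *Pgf*), 3 tyrosine kinase receptors (*Flt1*, *Kdr*, and *Flt4*), and 2 co-receptors (*Nrp1* and *Nrp2*). Their rows were found by gene symbol, and each symbol stood on 1 row. Insulin-producing β cells, endothelial cells (called ECs), and macrophages (called MΦs) were sorted from islets of mice that all carried MIP-GFP, RIP-rtTA, and TetO-VEGF-A on a C57BL/6 background, the untreated controls included. The rat *Ins2* promoter drives the rtTA activator in β cells, so that doxycycline (Dox) in the drinking water switches on human VEGF-A there, and the mouse insulin promoter drives GFP in the same cells. Mouse *Vegfa* therefore does not measure the induced factor, and whether reads of the human transgene also align to it was not tested. The mice were adults whose individual ages are not in the labels. Mice of the No Dox groups were never given the drug, those of the 1wk Dox groups had drunk it for 1 week, and those of the 1wk WD groups had then gone without it for 1 further week (withdrawal, WD). β cells were GFP+ cells without CD31 and CD11b, ECs were CD31+ cells, and MΦs were CD11b+ cells. The No Dox groups had 4 samples of each cell type. The 1wk Dox groups had 5 samples of β cells, 1 of ECs, and 2 of MΦs, and the 1wk WD groups had 3, 5, and 4. The column names of both 1wk Dox MΦ samples, the 1wk Dox EC sample, and 1wk WD β cell replicate 3 form a separate number series. What this series stands for is not in the labels. In ECs and MΦs it cannot be told apart from 1 week of Dox. Each sample pooled islets of several mice, and the methods call the samples biological replicates.

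VEGF-A acts on ECs mainly through KDR (VEGFR2), the receptor that relays growth, survival, and permeability signals. FLT1 (VEGFR1) binds VEGF-A, VEGF-B, and placental growth factor (encoded by *Pgf*) tightly with little kinase output, and acts largely as a trap for the ligand. FLT4 (VEGFR3) is the receptor of VEGF-C and VEGF-D (encoded by *Figf*), known best from lymphatic vessels and also present in fenestrated and sprouting capillaries. The neuropilins NRP1 and NRP2 have no kinase of their own, and present VEGF to its receptors and bind class 3 semaphorins. In the islet, β cells secrete VEGF-A, and the dense, fenestrated capillaries around them depend on it.

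Expression is given as a score, a value normalized by the authors and stored as a whole number, and 1 is the lowest score. Score sums per sample ran from 23465985 to 53441769, and the read depth behind a score is unknown. Tests used limma on log2(score + 1) over all genes whose mean score reached 20 in at least 1 group fitted, and a gene was called at a fold change of 2 or more with a Benjamini-Hochberg adjusted p under 0.05. All 10 genes passed the filter in every test. ECs and MΦs expressed the markers of their type in all samples: summed over 10 EC markers, the score was 338290 to 513441 in ECs and at most 4610 in MΦs. β cell libraries varied more. Their sum over 10 EC markers ranged from 1356 to 48971, and over 10 pericyte and stroma markers from 1033 to 537600. In bulk samples, fewer cells of a type and less RNA per cell cannot be told apart.

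At No Dox, the 3 cell types divided the system between them, with *Vegfa* highest in β cells and the receptors highest in ECs. Of the 10 genes, 9 were called between ECs and β cells, 6 higher in ECs and 3 lower, where 37.7% of all genes tested were called, 16.5% higher and 21.2% lower. Between MΦs and β cells 3 were called, all lower in MΦs (43.2% of all genes, 19.7% higher and 23.5% lower). Between ECs and MΦs 7 were called, all higher in ECs (33.5% of all genes, 15.9% higher and 17.6% lower). The median log2 fold change over all genes was -0.07, -0.12, and -0.01 in these comparisons.

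Among the ligands, *Vegfa*, the principal angiogenic factor, scored 9490, 10072, 5925, and 3127 in the 4 No Dox β cell samples. In ECs it scored 249, 281, 191, and 199, and in MΦs 288, 872, 352, and 422. All β cell samples stood above all others, and the level in β cells was 28.4-fold that in ECs (log2 fold change of ECs against β cells -4.83 ± 0.40 SE, limma adjusted p = 2.49e-06) and 14.7-fold that in MΦs (-3.88 ± 0.40, limma adjusted p = 1.08e-05). The MΦ sample with 872, replicate 2, also had the highest summed score of 10 β cell markers among No Dox MΦs, 47759, where the lowest was 1975. The part of β cell RNA in that value was not tested.

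*Vegfb*, a ligand of FLT1 linked to lipid uptake and cell survival, was highest in β cells as well, at 657 ± 139 (SD, n = 4) against 142 ± 67.2 in ECs (limma adjusted p = 0.00877), and ECs and β cells did not overlap. In MΦs it scored from 80 to 827 and was not called against β cells (limma adjusted p = 0.139). Without MΦ replicate 2, the sample with 827, *Vegfb* was called lower in MΦs (log2 fold change -1.65, limma adjusted p = 0.0326). *Pgf* was low in ECs, at 7 to 31, and in MΦs, at 2 to 70, and scored 40, 50, 339, and 816 in β cells. The β cell samples 3 and 4 that raised this mean were those with pericyte and stroma marker sums of 153063 and 537600, against 1033 and 1125 in samples 1 and 2. Without samples 3 and 4, an alternative chosen after seeing the data, *Pgf* was not called in ECs against β cells (limma adjusted p = 0.319 in place of 0.0387) or in MΦs against β cells (0.225 in place of 0.0246). The call in ECs was also lost without any 1 of the 4 EC samples (limma adjusted p from 0.0507 to 0.103), with quantile normalization (0.0535), and with sample weights (0.11). The call in MΦs was lost with sample weights (limma adjusted p = 0.232), with only the groups compared (0.06), and without β cell replicate 3 or 4 or MΦ replicate 1 or 3 (0.0593 to 0.0724).

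*Vegfc* and *Figf*, the ligands of FLT4, showed a different distribution. *Vegfc* scored 2299, 2483, 1657, and 2360 in No Dox ECs, 203 to 411 in MΦs, and 206, 143, 733, and 2171 in β cells. It was 7.91-fold higher in ECs than in MΦs (limma adjusted p = 0.00356) and 4.66-fold higher than in β cells (limma adjusted p = 0.018), although the highest β cell sample lay within the EC range. Without β cell replicate 1 *Vegfc* was not called against β cells (limma adjusted p = 0.0539). *Figf* scored 406 to 619 in ECs and 2 to 25 in MΦs, a 40.1-fold difference (limma adjusted p = 8.62e-04). In β cells *Figf* went from 34 to 1254 with the same samples 3 and 4 at the top, and was not called against ECs (limma adjusted p = 0.391). It was called without these samples (log2 fold change 2.82, limma adjusted p = 0.0151).

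The tyrosine kinase receptors had the widest differences. *Flt1* scored 138669, 127207, 137191, and 131467 in No Dox ECs, 256 to 1076 in β cells, and 470 to 626 in MΦs. *Kdr* scored 101250, 92107, 105159, and 96683 in ECs, 168 to 378 in β cells, and 76 to 236 in MΦs. *Flt4* scored 15564, 13460, 14839, and 12759 in ECs, 68 to 81 in β cells, and 6 to 144 in MΦs. No other sample came near an EC sample for any of them. Relative to β cells, ECs were 254-fold higher for *Flt1*, 411-fold for *Kdr*, and 193-fold for *Flt4* (limma adjusted p from 2.16e-08 to 5.91e-06). Divided by exon length, the mean EC score at No Dox was 13840 per kb for *Nrp1*, 13580 for *Kdr*, 11540 for *Flt1*, 2587 for *Nrp2*, 1720 for *Flt4*, and 1160 for *Vegfc*. Per kb, *Nrp1* and *Kdr* thus had the highest mean scores of the 10 genes in untreated islet ECs.

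The co-receptors were shared more widely. *Nrp1* scored 76483 to 90241 in No Dox ECs and 3599 to 5527 in MΦs, an 18.3-fold difference (limma adjusted p = 0.00934). *Nrp2* scored 23445 to 26076 in ECs and 1200 to 2388 in MΦs, a 13.8-fold difference (limma adjusted p = 3.09e-04). MΦs thus carried *Nrp1* well above their level of *Kdr* or *Flt1* per kb, with mean scores per kb at No Dox of 762.4 for *Nrp1*, 193 for *Nrp2*, 48.5 for *Flt1*, and 19.96 for *Kdr*. In β cells *Nrp1* scored 207, 90, 3300, and 7989, and its high values were those of samples 3 and 4, which were high in pericyte and stroma markers. Against β cells, *Nrp1* and *Nrp2* in MΦs were not called with all samples (limma adjusted p = 0.0884 and 0.0544). Without β cell samples 3 and 4 they were called higher in MΦs (limma adjusted p = 1.19e-07 and 1.19e-05), a choice made after seeing the data.

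**Figure D1:**
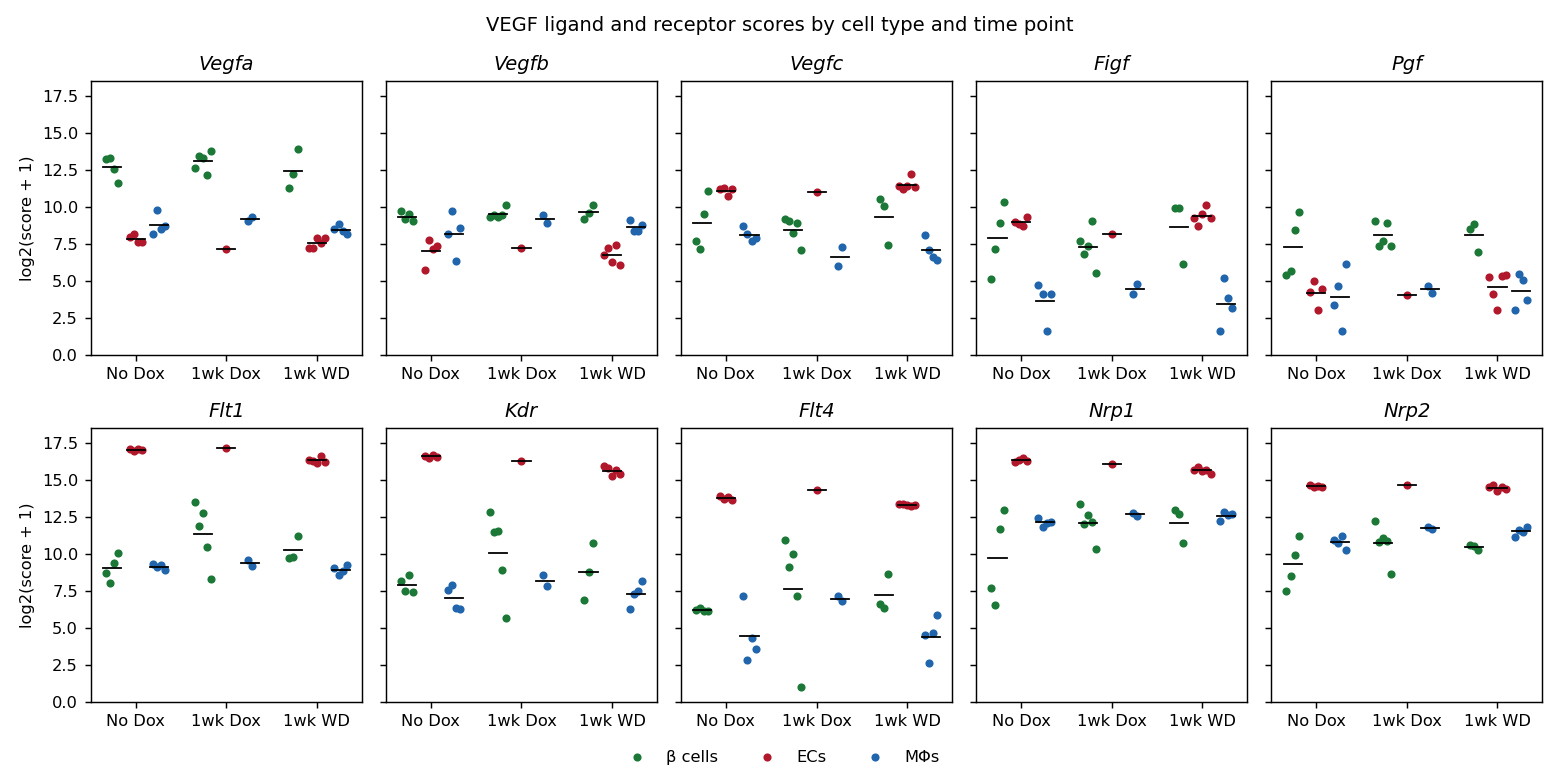
Scores of the 10 genes in each sample, as log2(score + 1), by time point (x axis) and cell type (colour); the short lines mark group means, and 1wk Dox ECs are 1 sample. *Vegfa* is highest in all β cell groups, and *Flt1*, *Kdr*, *Flt4*, *Nrp1*, and *Nrp2* are highest in all EC groups.

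The other genes of the pathway were grouped in 7 lists, and their counts at No Dox stand beside 16.5% of all genes called higher in ECs than in β cells and 21.2% called lower. Of 14 endothelial genes known to respond to VEGF, 13 were called higher in ECs than in β cells at No Dox and 0 lower, among them *Esm1*, a secreted proteoglycan of sprouting tip cells (log2 fold change 8.72), and *Plvap*, the diaphragm protein of fenestrae (7.73). Of 13 regulators of receptor transcription, 10 were called higher and 1 lower, *Prox1*, a lymphatic regulator that β cells also express, named here after its value was seen (-2.97). Of 15 receptor partners and phosphatases, 9 were called higher and 1 lower, the phosphatase *Ptprj*, likewise named after its value was seen (-2.56). Among the higher were *Cdh5*, the junction cadherin that associates with KDR and is also 1 of the EC markers (8.52), and *Ptprb*, the phosphatase that limits KDR (7.82). Of 34 relay genes below the receptors, 16 were called higher and 6 lower, with *Nos3*, the endothelial nitric oxide synthase, at 7.47. *Nfatc2*, named here after its value was seen, went the other way, at 204 to 379 in ECs and 5353 to 9616 in β cells. The median log2 fold change was 5.07, 5.40, 4.45, and 0.74 over these 4 lists and -0.07 over all genes tested. The first 3 of these lists hold genes known for their role in ECs, so higher scores there were in part fixed by the choice. The other 3 lists were class 3 semaphorins (7 genes tested), ligand processing and trapping (10 tested), and regulators of ligand transcription (10 tested). They had 3, 4, and 3 genes called higher and 1 lower in each, which was *Sema3e*, *Ccbe1*, and *Ppargc1a* in turn.

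After withdrawal of Dox, ECs had lower scores of the VEGF receptors than untreated ECs. *Kdr*, *Flt1*, *Nrp1*, and *Flt4* had an adjusted p under 0.05 and all fell, by less than 2-fold each, so that 0 of the 10 genes were called at the fold change of 2 (limma, 1.76% of all genes were called). With no minimum fold change, 3.9% of all genes passed, 1.62% as lower. At an unadjusted p under 0.05, the same 4 receptor genes passed (21.9% of all genes). The groups of 4 genes did not overlap, where 10.7% of all genes did not.

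*Kdr* scored 61402, 58413, 39326, 51315, and 44022 in the 5 1wk WD samples, all below the lowest No Dox value of 92107. The mean went from 98800 ± 5649 (SD, n = 4) to 50896 ± 9330 (SD, n = 5), and the log2 fold change was -0.97 ± 0.13 (SE, limma adjusted p = 0.00348). The fall of *Kdr* passed the 2-fold minimum without No Dox replicate 2 (-1.01), 1wk WD replicate 1 (-1.05), or 1wk WD replicate 2 (-1.03). *Flt1* scored 83002, 81109, 72250, 99647, and 74998 at 1wk WD, and its mean went from 133634 ± 5292 to 82201 ± 10690 (-0.71 ± 0.11, limma adjusted p = 0.00666). *Nrp1* scored 52360, 58640, 49617, 52818, and 42710, and its mean went from 81755 ± 6092 to 51229 ± 5786 (-0.68 ± 0.11, limma adjusted p = 0.00779). The 3 genes that lead the receptor scores of ECs thus fell in all 5 samples.

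*Flt4* fell less, to 10753, 10374, 10103, 9769, and 10244, with a mean of 14156 ± 1276 before and 10249 ± 361 after (-0.46 ± 0.09, limma adjusted p = 0.0165). *Nrp2* scored 19649 to 25934 at 1wk WD against 23445 to 26076 at No Dox, and the groups overlapped (limma adjusted p = 0.553). Among the ligands of ECs, *Vegfc* scored 2663, 2307, 2727, 4708, and 2577 at 1wk WD and overlapped with No Dox (limma adjusted p = 0.236), and *Figf* scored 418 to 1101 against 406 to 619. *Vegfa* stayed low, at 144 to 241.

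**Figure D2:**
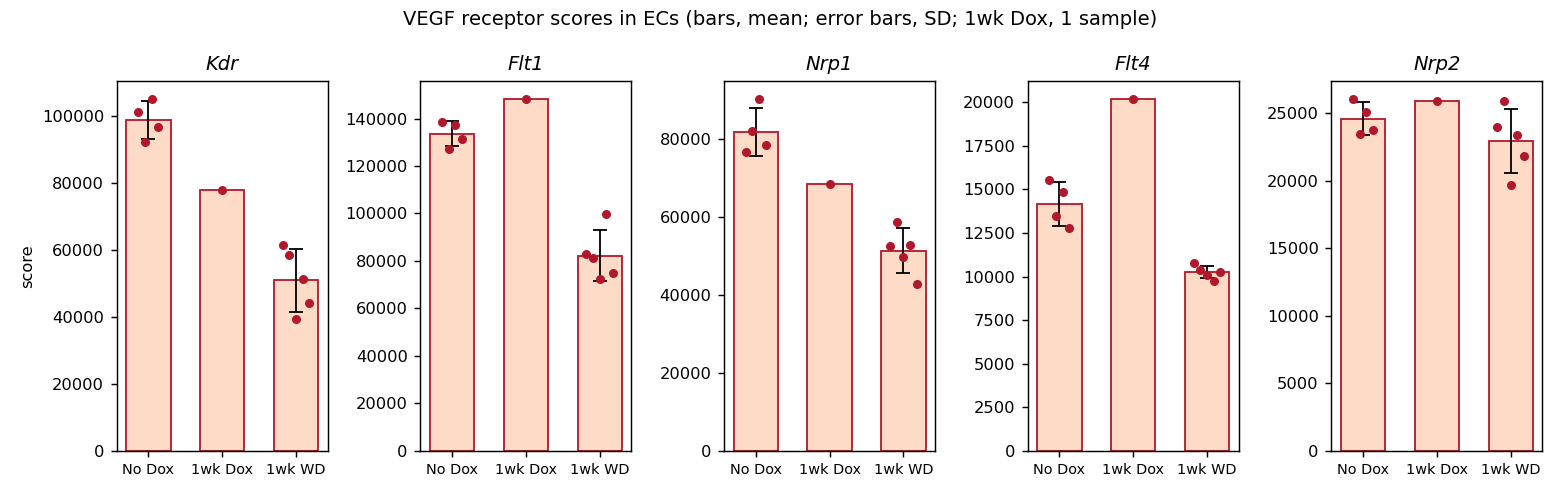
Scores of the 5 receptor genes in ECs at each time point; bars are means, error bars SD, and points samples. *Kdr*, *Flt1*, *Nrp1*, and *Flt4* are lower in all 5 1wk WD samples than in all 4 No Dox samples, and the *Nrp2* groups overlap.

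Quantile normalization left the direction of the 4 falls, but *Flt1* and *Nrp1* no longer had an adjusted p under 0.05: *Flt1* came to -0.44 (limma adjusted p = 0.0998) and *Nrp1* to -0.46 (0.0844), while *Kdr* came to -0.79 (0.0337) and *Flt4* to -0.45 (0.0242). *Flt4* missed the threshold without a trend of the spread (limma adjusted p = 0.0655) and without No Dox replicate 1 (0.0591) or 3 (0.0605).

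Markers of other cells also moved between these EC groups. The 7 acinar markers were all called lower at 1wk WD, with sums of 702 to 64626 against 65201 to 1791355 at No Dox, and 5 of 10 pericyte and stroma markers were called higher, with sums of 17019 to 71033 against 5685 to 12722. Of the 10 EC markers 0 were called (limma, 1 at an adjusted p under 0.05 with no fold change minimum), their median log2 fold change was -0.17, and their sums were 338290 to 372109 against 372299 to 401869. As a percentage of the summed EC marker score, *Kdr* was 25.2 ± 1.79 (SD, n = 4) at No Dox and 14.1 ± 2.15 (SD, n = 5) at 1wk WD, and *Flt1* was 34.1 ± 2.21 and 22.9 ± 2.73. *Nrp1* was 20.8 ± 1.21 and 14.2 ± 1.15, and *Flt4* was 3.61 ± 0.43 and 2.86 ± 0.12. On this scale too, all 1wk WD samples lay below all No Dox samples for each of the 4 genes, while *Nrp2* was 6.28 ± 0.5 and 6.39 ± 0.5. The part of the acinar and stromal RNA in these differences was not tested.

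The single 1wk Dox EC sample, with no test of its own, lay outside the No Dox range in 6 of the 9 genes that passed the filter here (*Pgf*, at 15, did not), where 62.1% of all genes lay outside it. *Flt1* was 148373 and *Flt4* 20208, above all No Dox and all 1wk WD samples. *Kdr* was 77811 and *Nrp1* 68370, below all No Dox and above all 1wk WD samples. *Nrp2*, at 25930, lay within the No Dox range. Of the 9 genes 0 differed by 2-fold or more from the No Dox mean (10.7% of all genes did). Quantile normalization turned *Flt1* from above to below the No Dox mean (log2 difference 0.15 and -0.14). The summed EC marker score of this sample, 513441, was the highest of all ECs, and on that scale the positions changed. *Flt1*, at 28.9%, was then below the No Dox range of 32.2% to 37.2%, *Kdr* (15.2%) and *Nrp1* (13.3%) lay within the 1wk WD range, and *Flt4* (3.94%) lay within the No Dox range. *Nrp2*, at 5.05%, was below all No Dox (from 5.93%) and all 1wk WD samples (from 5.58%). Among the ligands, *Vegfa* was 140 and *Figf* 284, below all other ECs, and *Vegfc* was 2089. The 1wk Dox EC sample also belongs to the separate column series, which cannot be told apart from Dox here.

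Of the other genes of the pathway, 4 were called in ECs at 1wk WD, where 1.76% of all genes were called. Of the 34 relay genes 2 were called, both higher. *Vav2*, a guanine nucleotide exchange factor, scored 152 to 221 at No Dox and 310 to 543 at 1wk WD (log2 fold change 1.21 ± 0.21 SE, limma adjusted p = 0.0126), and *Nfatc2*, a calcium-regulated transcription factor, scored 204 to 379 and 405 to 1061 (1.33 ± 0.27, 0.0206). *Sema3f*, a semaphorin that binds NRP2, was the 1 gene of 7 class 3 semaphorins called, and fell from 6868 to 8236 at No Dox to 2279 to 5219 at 1wk WD (-1.06 ± 0.21, limma adjusted p = 0.0185). *Foxc2*, a forkhead factor of vessel development, was the 1 of 13 regulators of receptor transcription called, at 10 to 51 and 54 to 114 (1.88 ± 0.47, limma adjusted p = 0.043). The No Dox and 1wk WD groups of these 4 genes did not overlap, as in 10.7% of all genes. Pericyte and stroma marker sums were higher at 1wk WD too, at 17019 to 71033 against 5685 to 12722. In the stroma-rich No Dox β cell samples 3 and 4, *Vav2*, *Foxc2*, and *Sema3f* were higher than in samples 1 and 2, and *Nfatc2* was lower. The part of stromal RNA in these EC changes was not tested. Of the 14 VEGF-responsive genes 0 were called by limma, also with no fold change minimum, with 11 lower and 3 higher and a median of -0.22, against 0.00 over all genes tested.

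*Foxc2* lost its call with no filter on low scores (limma adjusted p = 0.0714), with the replicate block (0.0675), and with sample weights (0.104), and *Sema3f* fell under 2-fold with sample weights (-0.81). Without a trend of the spread, *Sema3f*, *Foxc2*, and *Nfatc2* lost their calls (limma adjusted p = 0.0729, 0.0729, and 0.0696). Leaving out 1 sample ended the call of *Vav2* without No Dox replicate 3 (0.0501), of *Nfatc2* without No Dox replicate 1 or 3 (0.0696 and 0.0723), of *Sema3f* without No Dox replicate 1, 2, or 3 or 1wk WD replicate 3 or 4, and of *Foxc2* in all cases but No Dox replicate 4 and 1wk WD replicate 2.

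The stretches before the start sites of the 4 receptor genes that fell in ECs are shown because these genes moved together. They hold the 250 bases upstream of the RefSeq start in build GRCm38.p6, 5′ to 3′ on the strand of the gene, with each GGAA core of the ETS family of endothelial transcription factors, on either strand (GGAA or TTCC), in capitals. *Kdr* lies on the minus strand at chr5:75978456-75978705, *Flt1* on the minus strand at chr5:147726012-147726261, *Flt4* on the plus strand at chr11:49609429-49609678, and *Nrp1* on the plus strand at chr8:128358823-128359072.
Kdr: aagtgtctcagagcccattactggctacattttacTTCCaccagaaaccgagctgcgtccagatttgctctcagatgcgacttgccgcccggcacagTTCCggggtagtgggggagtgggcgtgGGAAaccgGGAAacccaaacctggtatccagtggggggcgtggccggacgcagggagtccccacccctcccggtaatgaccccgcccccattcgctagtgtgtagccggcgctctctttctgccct
Flt1: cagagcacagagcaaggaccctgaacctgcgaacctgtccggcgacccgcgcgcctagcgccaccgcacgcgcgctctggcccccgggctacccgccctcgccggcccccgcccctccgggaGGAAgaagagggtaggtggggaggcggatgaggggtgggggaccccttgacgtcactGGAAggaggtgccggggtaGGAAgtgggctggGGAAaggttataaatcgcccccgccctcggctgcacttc
Flt4: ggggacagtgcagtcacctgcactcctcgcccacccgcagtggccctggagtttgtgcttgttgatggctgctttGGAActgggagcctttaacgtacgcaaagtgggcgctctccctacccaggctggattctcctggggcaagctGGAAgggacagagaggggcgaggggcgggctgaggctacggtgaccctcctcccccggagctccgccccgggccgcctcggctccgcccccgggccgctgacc
Nrp1: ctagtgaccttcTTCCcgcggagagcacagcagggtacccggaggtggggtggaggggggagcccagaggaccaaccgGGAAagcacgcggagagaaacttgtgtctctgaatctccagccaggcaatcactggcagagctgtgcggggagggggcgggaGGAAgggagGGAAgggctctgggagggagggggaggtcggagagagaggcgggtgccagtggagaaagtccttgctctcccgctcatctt
*Kdr*, *Flt1*, and *Nrp1* held 4 cores each and *Flt4* 2. The short core is common, and 93.4% of the 32851 RefSeq promoter windows of that length held at least 1. The 4 longer ETS forms that were searched, held by 2.88% to 25.7% of all windows, had 0 matches in these stretches. Of the other motifs searched, GGGCGG (32.7% of all windows) and CACCC (52%) were in all 4 stretches. The hypoxia form GCGTG (28.2%) was in those of *Kdr*, *Flt1*, and *Nrp1*, and the rest were in none. Whether any motif bears on the fall of these genes was not tested. Promoter windows were found for all 10 genes, *Figf* under its current symbol *Vegfd*.

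In β cells, 0 of the 10 genes were called at any comparison of time points. At 1wk Dox against No Dox, 0.0122% of all genes were called, and 1 of the 10 genes, *Flt1*, had an unadjusted p under 0.05 (limma, 6.99% of all genes). At 1wk WD against No Dox and against 1wk Dox, 0% of all genes were called by limma, and 0 of the 10 had an unadjusted p under 0.05 (8.17% and 6.31% of all genes). *Vegfa*, the ligand that β cells make themselves, scored 6436, 11265, 10251, 4584, and 13766 after 1 week of Dox, while the withdrawal samples had 2418, 4680, and 15329, and both groups overlapped with No Dox. The 10 β cell markers summed to 636632 in the 1wk WD sample with the lowest *Vegfa* and to 10941261 in the one with the highest. In the remaining 1wk WD sample, with *Vegfa* at 4680, they summed to 1919441. The part of the share of β cells in this spread was not tested. Acinar marker sums of β cells differed without overlap between No Dox (32739 to 12946188) and 1wk Dox (210 to 21367). The part of this difference in the comparisons of time points was not tested.

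At 1wk Dox, *Kdr* and *Flt1* in the β cell samples followed the order of the EC marker sums. *Kdr* scored 7106, 2846, 3040, 483, and 50 in replicates 1 to 5, and *Flt1* scored 11716, 3759, 6834, 1382, and 315. The 10 EC markers summed to 48971, 16268, 23111, 8045, and 1671 in the same samples. Of the mean level in No Dox ECs, replicate 1 held 12.5% of the EC marker sum, 8.77% of *Flt1*, 7.19% of *Kdr*, and 13.8% of *Flt4*. Replicate 5 held 0.426% of the EC marker sum and 0.236%, 0.0506%, and 0.00706% of the same receptors, and its *Flt4* was at the lowest score, 1. The log2 fold changes at 1wk Dox of *Flt1* (2.34 ± 0.90 SE, limma adjusted p = 0.654) and *Kdr* (2.18 ± 1.26, limma adjusted p = 0.761) were not called. In the 3 1wk WD samples, *Kdr* (118, 433, and 1702) and *Flt1* (847, 898, and 2391) followed the order of the sums (7422, 9872, and 16037) as well. At No Dox *Flt1* did so too, from 256 at a sum of 1356 to 1076 at a sum of 10829, while *Kdr* and *Flt4* did not: *Flt4* stayed at 68 to 81, and *Kdr* was lowest, at 168, in the sample with the highest sum. Without 1wk Dox replicates 1 to 3, left out after seeing the data, *Kdr* came to -0.61 and *Flt4* from 1.44 to -2.11. The part of EC RNA in these receptor scores was not tested.

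At No Dox and 1wk WD, *Nrp1* was highest in the β cell samples high in pericyte and stroma markers. At No Dox, *Nrp1* scored 207 and 90 in samples 1 and 2 and 3300 and 7989 in samples 3 and 4, beside marker sums of 1033, 1125, 153063, and 537600. *Vegfc* scored 206, 143, 733, and 2171 in the same order, and *Figf* 34, 138, 480, and 1254. At 1wk WD, *Nrp1* scored 7830 and 6607 in replicates 1 and 2, with marker sums of 366245 and 331308, and 1683 in replicate 3, with 25433. The log2 fold change of *Nrp1* against No Dox was 2.38 after Dox and 2.40 after withdrawal (limma adjusted p = 0.738 and 0.627), and without No Dox samples 1 and 2, left out after seeing the data, it was -0.23 and -0.21. *Vegfb* was steadier than these genes, at 518 to 825 in untreated mice, 625 to 1133 after Dox, and 588 to 1092 after withdrawal.

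**Figure D3:**
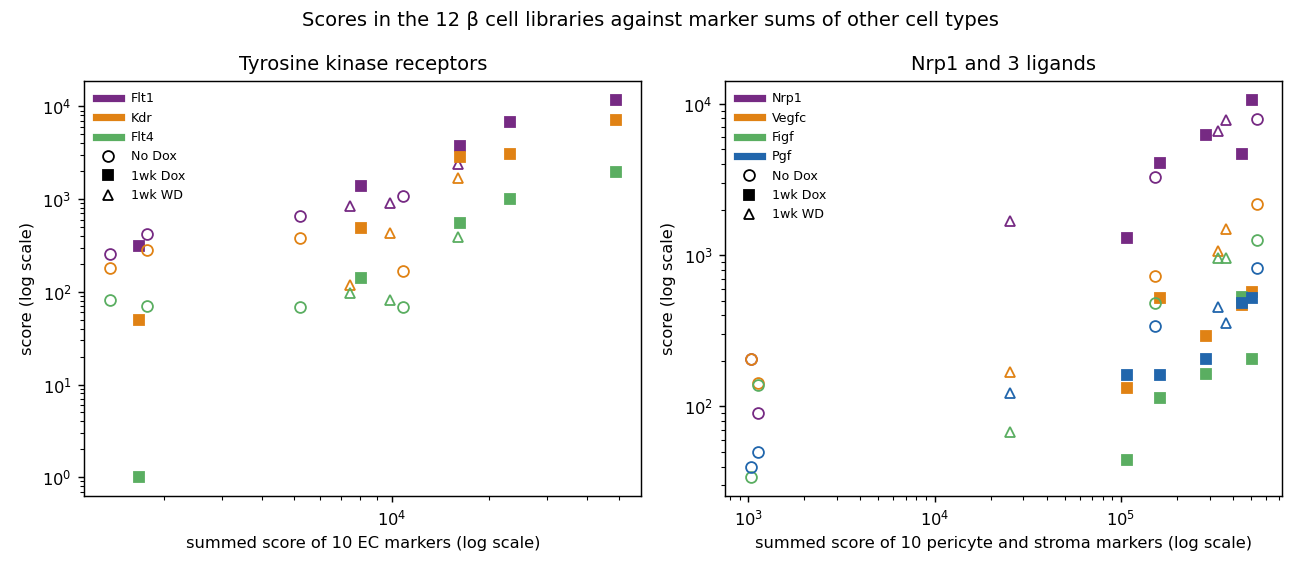
Scores of receptor and ligand genes in each of the 12 β cell samples (log scales), on the left against the summed score of 10 EC markers and on the right against that of 10 pericyte and stroma markers; symbols mark the time point. *Flt1*, *Kdr*, and *Flt4* are highest in the 1wk Dox sample with the highest EC marker sum, 48971, and *Vegfc*, *Figf*, and *Pgf* are highest in the No Dox sample with the highest stromal sum, 537600.

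In MΦs, 0 of the 10 genes were called at 1wk Dox or 1wk WD against No Dox (limma, 2.26% and 0.626% of all genes), and 4 and 3 had an unadjusted p under 0.05 (21.3% and 17.3% of all genes). At 1wk WD against 1wk Dox 0 were called (limma, 0.0866% of all genes), and 1, *Flt4*, had an unadjusted p under 0.05 (9.7% of all genes). The co-receptors came nearest. *Nrp2* scored 2000, 1736, 2388, and 1200 at No Dox, 3561 and 3240 after 1 week of Dox, and 2219, 3197, 2895, and 3647 after withdrawal. Both 1wk Dox samples lay above all No Dox samples, with a log2 fold change of 0.93 ± 0.25 (SE, limma adjusted p = 0.0537), and the 1wk WD range overlapped with No Dox (0.73 ± 0.21, limma adjusted p = 0.0971). *Nrp2* at 1wk Dox passed the call with quantile normalization (1.01, limma adjusted p = 0.0367), with sample weights (1.09, 0.00411), and without No Dox replicate 3 (1.08, 0.0239). Its adjusted p was 0.136 with no trend, 0.393 with the replicate block, and 0.129 with only the groups compared (limma). Leaving out a 1wk Dox sample leaves 1, and the log2 fold change was then 0.87 without replicate 4 and 1.00 without replicate 5.

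*Nrp1* scored 5527, 3599, 4320, and 4567 at No Dox, 7055 and 6148 after 1 week of Dox, and 4708, 7294, 6192, and 6719 after withdrawal. The log2 fold changes were 0.57 ± 0.20 (SE, limma adjusted p = 0.121) and 0.47 ± 0.16 (0.165). *Vegfc* went the other way, from 411, 289, 203, and 233 at No Dox to 63 and 151 after 1 week of Dox and 266, 136, 97, and 84 after withdrawal (-1.48 ± 0.52, limma adjusted p = 0.124, and -1.06 ± 0.43, limma adjusted p = 0.229). *Nrp1*, *Nrp2*, and *Vegfc* were the 3 genes whose 1wk Dox and No Dox groups did not overlap, where 30.9% of all genes did not. The summed score of 11 macrophage markers also differed without overlap, with 324152 to 398616 at No Dox and 443260 to 536316 at 1wk Dox. That of 7 acinar markers was 25708 to 11841621 at No Dox and 1011 to 3423 at 1wk Dox. The part of these shifts in the values of *Nrp1*, *Nrp2*, and *Vegfc* was not tested. Both 1wk Dox MΦ samples also belong to the separate column series, which cannot be told apart from Dox here.

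The tyrosine kinase receptors stayed low in MΦs. *Flt1* scored 371 to 768 over all 10 MΦ samples. *Kdr* scored 373 and 223 at 1wk Dox against 76 to 236 at No Dox, and *Flt4* scored 142 and 110 against 144, 6, 19, and 11. Neither was called (limma adjusted p = 0.281 and 0.233). *Erg*, an ETS factor of ECs, was the 1 of 11 tested regulators of receptor transcription called at 1wk Dox (2.26% of all genes), at 219 and 153 against 29 to 43 (log2 fold change 2.41 ± 0.54 SE, limma adjusted p = 0.0281). The EC marker sum in the same samples was 4610 and 3937 at 1wk Dox and 2016 to 2498 at No Dox, and the part of EC RNA in these values was not tested. Without either 1wk Dox sample, which leaves 1 that is assumed to vary like the other groups, *Erg* lost its call at a log2 fold change of 2.15 or 2.67 (limma adjusted p of 0.149 or more). It lost it also without No Dox replicate 1 (limma adjusted p = 0.0506), with the replicate block (0.463), and with only the groups compared (0.1).

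**Figure D4:**
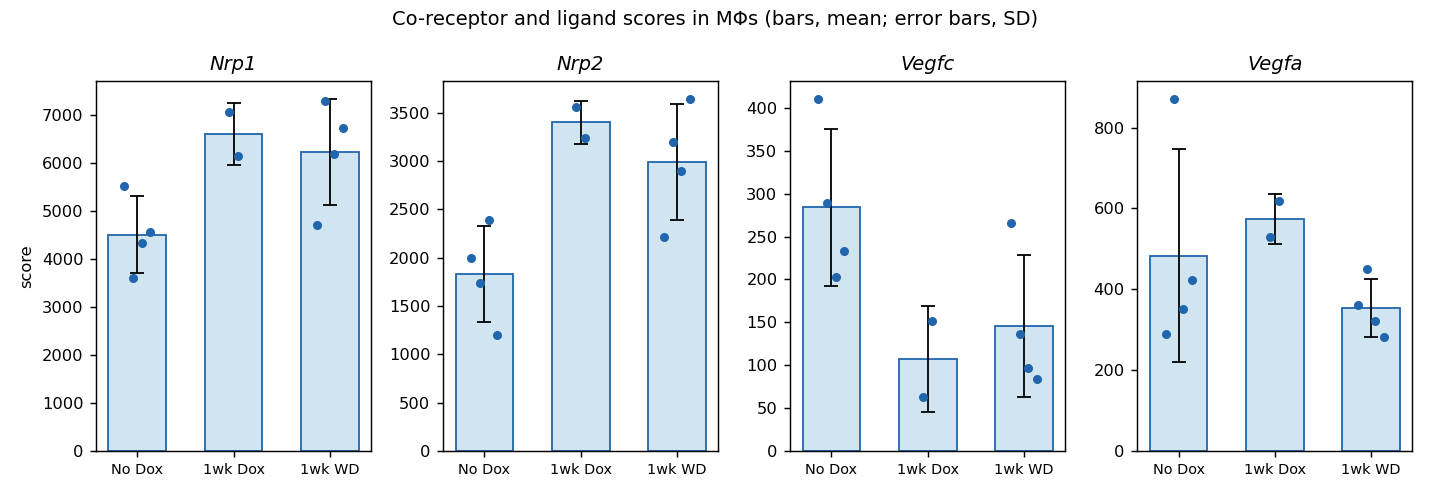
Scores of *Nrp1*, *Nrp2*, *Vegfc*, and *Vegfa* in MΦs at each time point; bars are means, error bars SD, and points samples. Both 1wk Dox samples lie above all No Dox samples for *Nrp1* and *Nrp2* and below them for *Vegfc*.

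At 1wk WD, the division between the cell types again placed *Vegfa* in β cells and the receptors in ECs. Of the 10 genes, 9 were called between ECs and β cells (6 higher in ECs and 3 lower, against 39.9% of all genes, 14.8% higher and 25.2% lower). Between MΦs and β cells 7 were called (1 higher in MΦs and 6 lower, against 46.2% of all genes, 19.2% higher and 27% lower). Between ECs and MΦs 8 were called (7 higher in ECs and 1, *Vegfb*, lower, against 40.3% of all genes, 19.6% higher and 20.8% lower). *Vegfa* was 30-fold higher in β cells than in ECs. *Kdr* was 113-fold, *Flt1* 66.9-fold, and *Nrp1* 11.5-fold higher in ECs than in β cells (limma adjusted p from 7.43e-09 to 5.18e-06). Of the 7 genes called between MΦs and β cells, *Nrp2* was higher in MΦs. *Nrp2* came under 2-fold without β cell replicate 3 or MΦ replicate 4 (both 0.96), as did *Flt1* without β cell replicate 3 (-0.86), and *Flt4* lost its call with quantile normalization (limma adjusted p = 0.102) and sample weights (0.11). *Vegfb* gained a call with the replicate block (-1.09, limma adjusted p = 0.0479) and without β cell or MΦ replicate 1, and *Kdr* without β cell replicate 1 or MΦ replicate 4. Without β cell replicates 1 and 2, rich in stromal markers and left out after seeing the data, 1 β cell sample remains, which is assumed to vary like the other groups. In that fit *Vegfc*, *Figf*, and *Pgf* lost that call (limma adjusted p = 0.595, 0.0576, and 0.0648) and *Vegfb* and *Kdr* gained it (0.042 and 0.000543). *Pgf* also lost its call in ECs against β cells (-2.35, limma adjusted p = 0.0942).

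Whether the 1wk WD response differed between cell types was tested directly. Of the 10 genes, 0 were called for ECs minus MΦs (limma, 0.0356% of all genes called), and 0 had an unadjusted p under 0.05 (11.5% of all genes). By limma, 0 were called for ECs minus β cells (0.368% of all genes), and 3 had an unadjusted p under 0.05 (15%). For MΦs minus β cells 0 were called by limma (0.0475%), and 1 had an unadjusted p under 0.05 (11.8%). For the 1wk Dox response of MΦs minus β cells 0 were called by limma (0% of all genes), and 0 had an unadjusted p under 0.05 (5.43%).

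*Flt1* had the smallest adjusted p of these, with a response in ECs lower than that in β cells by 1.93 on the log2 scale (-1.93 ± 0.47 SE, limma adjusted p = 0.0612). It was called without No Dox β cell replicate 4 (-2.27, limma adjusted p = 0.00485) and with sample weights (-1.84, 3.48e-05). In the β cell samples, *Flt1* followed the order of the EC marker sums within each time point. The part of EC RNA in this difference was not tested. For *Nrp1*, the difference of ECs minus MΦs was -1.15 ± 1.21 (limma adjusted p = 0.79) in the fit that shared its spread with β cells, and -1.15 ± 0.20 (limma adjusted p = 0.00719) when only ECs and MΦs were fitted. *Nrp1* fell in all 5 1wk WD ECs, while 3 of the 4 1wk WD MΦs stood above all No Dox MΦs.

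**Figure D5:**
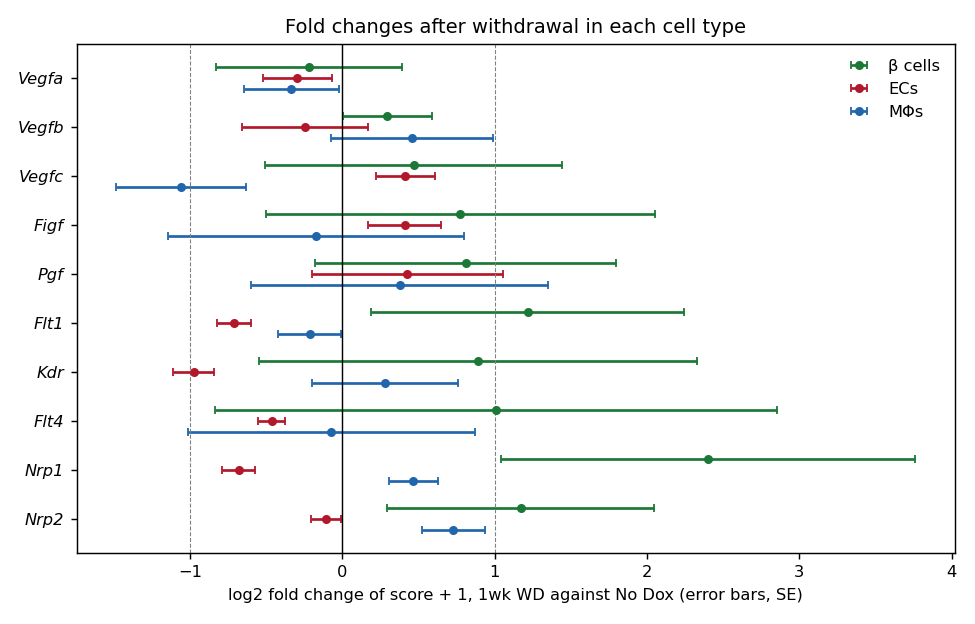
Log2 fold change of score + 1 at 1wk WD against No Dox for the 10 genes in β cells (green), ECs (red), and MΦs (blue), with SE as error bars; dashed lines mark 2-fold. The EC values of *Kdr*, *Flt1*, *Nrp1*, and *Flt4* lie between -0.97 and -0.46, and β cells have the widest errors.

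Across all 32 samples, the genes whose log2 scores followed each receptor best were named by the size of the correlation alone. Correlations over these samples reflect the 3 cell types, and are given as a description. *Kdr* was followed most closely by *Eltd1* (Pearson's r = 0.985), *Cyyr1* (0.983), and *Exoc3l2* (0.981). *Flt1* was followed by *Afap1l1* (0.988), *Arhgef15* (0.986), and *Podxl* (0.985), and *Flt4* by *Btnl9* (0.972), *Lrrc3b* (0.971), and *Erg* (0.971). *Nrp1* was nearest to *Crim1* (0.983) and *Nrp2* to *Pde2a* (0.974). Within the family, *Kdr* and *Flt1* had r = 0.985, *Kdr* and *Flt4* 0.965, and *Nrp1* and *Nrp2* 0.956.

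The ligands followed other genes. *Vegfa* was nearest to *Slc7a14* (r = 0.985), *Snhg11* (0.983), and *Pcsk2* (0.981), the last a prohormone convertase of β cells. *Vegfb* was nearest to *Syngr1* (0.922), *Vegfc* to *Nfia* (0.954), and *Pgf* to *Fxyd1* (0.938). *Vegfa* and *Kdr* had r = -0.454 over the same 32 samples.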

How the data were processed

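RNA of sorted islet cells was amplified (NuGEN Ovation) and sequenced as paired-end reads, which the authors aligned to mm9 with TopHat2 (2.0, per the submitters' processing notes) and normalized by TMM in Avadis NGS. What they deposited is a score per gene, rounded to whole numbers, from which depth cannot be recovered. Of 38 sample columns, 32 matched the labels and 6 were not used. A 1wk Dox sample titled Bets counts as β cells, which its source name gives.

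The log2(score + 1) values were tested with limma 3.58.1 (R 4.3.3; empirical Bayes with a trend), with p-values adjusted over all genes that passed the filter. Models within a cell type held its time points (for ECs, No Dox and 1wk WD), models between cell types held 1 time point, and differences of responses were interaction contrasts. The procedure was checked on simulated data in which all groups of a gene had the same spread. The check therefore does not cover groups of unequal spread, such as β cells and ECs. Genes named were the 10 members, the called genes of each pathway list (up to the 4 with the largest change per comparison), the 3 genes with the highest Pearson correlation to each member, and markers. The gene nearest to *Figf* is not reported here. Members and lists were chosen with earlier results of these data known.

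Scores per kb used GENCODE M1 exon lengths on mm9, and promoters came from RefSeq (GRCm38.p6). On both strands, 12 partly overlapping motifs were searched: the ETS forms GGAA and CGGAAG and also CCGGAAGT with ACCGGAA or CAGGAA, the hypoxia forms ACGTG or GCGTG, the box GGGCGG, the box CACCC, the SOX form AACAAT, the AP-1 form TGACTCA, and the GATA form GATAA. Counts are given for the ETS forms alone, and the other forms are given as present or absent in the printed stretches.

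Alternatives were pseudocounts of 0.1 and 20, no filter, a mean score of 200 as the filter, median-of-ratios or quantile scaling, no trend, fewer groups in the fit, a replicate block, sample weights, no fold change minimum, and leaving out each sample. Leaving out β cell samples with the most or the fewest stromal markers, or with the most EC markers, was added after seeing the data.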

Additional observations from a re-analysis of the deposited data

Results flagged for a closer look

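Each of the 10 genes was screened in the 6 groups of 4 or 5 samples, 60 sets of values in all, for a highest or lowest sample separated from the rest by most of the range. Of these, 3 were flagged, and a 95% critical value flags about 1 in 20 by chance. *Vegfb* was 1133 in 1wk Dox β cell replicate 5, above 625 to 691 in the other 4. *Vegfc* was 4708 in 1wk WD EC replicate 4, above 2307 to 2727 in the others. The same sample had the highest *Figf* of all ECs, 1101, and the part of stromal RNA in these values was not tested. *Flt4* was 144 in No Dox MΦ replicate 1, above 6 to 19 in the others, and without this sample *Flt4* was called lower in MΦs than in β cells at No Dox (log2 fold change -2.62, limma adjusted p = 9.98e-05).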

How the results depend on the processing

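Counts of called genes among the 10, by limma, kept within 1.5 times their value under all alternatives run except the following. In ECs at 1wk WD against No Dox, 0 called became 4 with no fold change minimum and 0 to 1 when a sample was left out, and the 4 genes with an adjusted p under 0.05 became 2 with quantile normalization and 3 to 4 when a sample was left out. In MΦs at 1wk Dox against No Dox, 0 became 1 with quantile normalization, 1 with sample weights, and 0 to 1 when a sample was left out, and at 1wk WD against 1wk Dox 0 became 1 with sample weights. For MΦs against β cells at No Dox, 3 became 5 with sample weights, 2 to 5 when a sample was left out, and 5 without β cell replicate 4 or without MΦ replicate 2. For the difference of the 1wk WD response, ECs minus β cells went from 0 to 6 with sample weights and 0 to 3 when a sample was left out (3 without No Dox β cell replicate 4), MΦs minus β cells from 0 to 4 and 0 to 1 (1 without the same sample), and ECs minus MΦs from 0 to 1 with only the groups compared. Sample weights raised the calls over all genes too, from 340 to 712 and from 13 to 313 of 15014 in these MΦ comparisons, and from 62 to 3794 and from 8 to 3253 of 16833 for the responses of ECs and of MΦs minus β cells. The causes were not tested, and the estimate of sample weights stopped before convergence in some fits. Single values of the 10 genes were recomputed where they were called, had a log2 size of at least 1, or had an unadjusted p under 0.05, and among these the following turned. For the difference of the 1wk Dox response, *Flt4* came to -0.23 with a pseudocount of 20 and ran from -0.60 (without 1wk Dox β cell replicate 5) to 1.96 when a sample was left out, and *Kdr* to 0.97 with the replicate block. In alternatives chosen after seeing the data, without No Dox β cell samples 1 and 2 *Nrp1* came to -0.23 after Dox and -0.21 after withdrawal, and *Nrp2* to -0.12 after withdrawal, and without 1wk Dox β cell samples 1 to 3 *Kdr* came to -0.61 and *Flt4* to -2.11 against No Dox, and at 1wk WD against 1wk Dox *Flt1* came to 0.89 and *Kdr* to 1.501. Samples that share a replicate number did not all deviate together: their correlations ran from -0.48 to 0.34 in β cells, -0.21 to 0.20 in ECs, and -0.12 to 0.11 in MΦs over time, and between cell types from -0.19 to 0.38 at No Dox and -0.07 to 0.14 at 1wk WD. Not every pair was above 0.1 in any of these, which neither shows nor excludes that the numbers pair the samples. Between cell types at 1wk WD, the median was 0.08 for samples that share a number and -0.03 for the others. At No Dox these medians were -0.03 and 0.01. The replicate block left 0 of the 10 genes called in all 3 cell types over time and 4 in ECs at an adjusted p under 0.05, and moved no count by over 1.5 times. The read depth behind low scores, such as those of *Pgf* in ECs and MΦs, is unknown.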
